A study of Mus musculus with 20 samples.

Results

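The genes described here are 35 components of TGF-beta and BMP signaling, taken by name from a fixed list. The list was chosen with earlier results of these data known. It holds 8 ligands or ligand-processing proteins, 9 receptors, 5 signal-transducing Smads, 9 inhibitors or corepressors and 4 target genes. RNA-seq measured their mRNA in the mouse line p19/Nras, grown from a liver tumor that Nras induced in mice without p19/Arf, so that every group shares this background. The Myc experiment compared Trim33-WT cells (control guide) with the CRISPR lines Trim33-KO1 and Trim33-KO2 (Trim33 guide), each with the pWZL control vector (Ctrl) or with Myc, in 6 groups of 2 libraries and 13107 genes. The hydroxyurea (HU) experiment compared Trim33-WT with Trim33-KO cells, each given vehicle (called untreated here) or HU, which starves DNA replication of nucleotides, in 4 groups of 2 libraries and 11210 genes. The labels do not say which knockout line the HU experiment used, nor the dose or time of HU. The study's own text gives a treatment of hours for WT cells profiled with HU, and a standard concentration for its HU cultures without tying it to these libraries. Of the 35 genes, 34 were listed for the Myc experiment and 31 for HU: the co-receptor Tgfbr3 was listed in neither, and Tgfb2, Bmp4 and Bambi only in the Myc experiment. The labels call the cells HCC, and 2 of 12 hepatocyte markers were listed (Afp and Krt18, with Alb, Ttr and Hnf4a among those that were not). Of the cholangiocyte markers 3 of 5 were listed in each experiment. Of the stellate cell or fibroblast markers it was 8 of 10 in the Myc experiment and 4 of 10 in the HU experiment.

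TGF-beta family ligands assemble a pair of type II and a pair of type I receptor kinases, which phosphorylate receptor Smads. Smad2 and Smad3 carry the TGF-beta and activin branch, Smad1 and Smad5 carry the BMP branch, and both bind Smad4 and enter the nucleus. Smad6, Smad7 and the Smurf ubiquitin ligases restrain the pathway at the receptors, and Ski, Skil, Tgif1 and Tgif2 repress at Smad-bound genes. Id1, Id2 and Id3, inhibitors of basic helix-loop-helix factors, are classical BMP targets. Trim33 itself is a ubiquitin ligase of the TIF1 family known to bind phosphorylated Smad2 and Smad3 and to target Smad4.

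The libraries held 14753177 to 17949430 counts in the Myc experiment, against 2315327 to 3082202 with or without HU in the other. Levels are given in CPM, counts relative to the library total after TMM scaling, and genes were called at an adjusted p of edgeR's quasi-likelihood test under 0.01, or under 0.05 for HU against untreated. With Ctrl, Trim33, the targeted gene, reached 245.6 and 258.1 CPM in the WT libraries, 123.4 and 130.4 for KO1 and 200.9 and 206.8 for KO2, a log2 fold change of -0.99 and -0.30 (adjusted p = 3.5e-09 and 0.000966). With Myc it was at 130.7 and 154.7 CPM in WT, 185.4 and 192.5 for KO1 and 124.1 and 124.7 for KO2, so that the libraries labelled KO1 Myc exceeded those labelled WT Myc, against the label. In the HU experiment Trim33 was at 125.2 to 142.2 CPM in the 4 WT libraries and at 43.77 to 52.16 in the 4 KO libraries. An edited gene can still be transcribed, so that its mRNA is a limited check of a knockout. In such bulk samples, fewer cells of a type and less RNA per cell cannot be told apart.

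The difference between the KO lines also turned round with the vector. Of 1301 genes called in KO2 against KO1 both with Ctrl and with Myc, comparisons that share no library, 36 moved the same way (2.77%) and 1265 the opposite way, with a Pearson r of -0.73 across 13107 genes, which are not independent replicates. Of the pathway genes, 11 of 34 were called in KO2 against KO1 with Ctrl (18.3% of all genes were) and 14 of 34 with Myc (18.5% of all genes). The 8 called in both are 72.7% of the former and 57.1% of the latter, and 7 of them had opposite signs: Bmp4, Tgfb2, Bambi, Tgfbi, Id3, Ltbp1 and Smurf1, with Id2 as the exception. A difference between the lines and the placing of the labels KO1 and KO2 on the Myc libraries cannot be told apart here, so that KO1 and KO2 with Myc mean the libraries so labelled, and no label was exchanged. Comparisons with Myc are therefore led by the mean of both KO lines, which does not depend on how these labels are placed. It still depends on which Myc libraries are labelled WT. This mean was chosen after the values were seen.

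The 2 WT Myc libraries also stood apart from each other. The mean squared difference between the libraries of a group, relative to what counting error alone gives, was 11 in WT Myc and 2.21 to 4.52 in the other groups of the Myc experiment. It was 2.22 to 4.56 in the HU groups, but this ratio falls with fewer counts. The coefficient of variation between libraries beyond counting error, in edgeR's common estimate, was 0.102 in the HU and 0.0498 in the Myc experiment. Calls of pathway genes for Myc in WT numbered 22, against 21 without the first and 23 without the second WT Myc library. For the mean of both KO lines against WT with Myc they numbered 17, against 16 and 20, and for the effect of Myc in KO, as the mean of both lines, minus that in WT 19, against 19 and 22. The call for Id2 with Myc in WT was lost without the second WT Myc library, at a log2 fold change of 0.27 against 0.39 without the first.

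**Figure D1:**
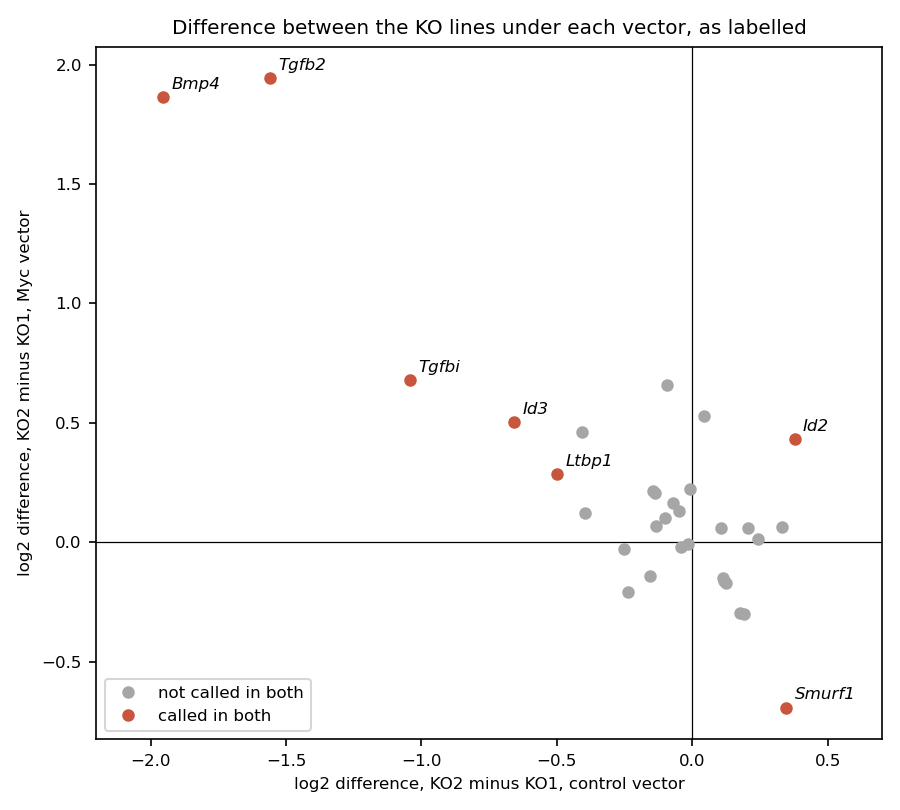
Each point is a pathway gene, with the log2 difference of KO2 minus KO1 with the control vector on the x axis and with the Myc vector on the y axis; red points were called in both, and Grem1 and Bambi, which had a group at no more than 3 counts in each library, are left out. Bmp4 sits at -1.96 and 1.86 and Tgfb2 at -1.56 and 1.94, while Id2 (0.38 and 0.43) is the red point with the same sign on both axes.

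With the control vector, the target genes stood out among the pathway genes, with Id1, Id2 and Id3 all higher in both Trim33-KO lines. Id3 was at 20.91 and 15.45 CPM in WT Ctrl, against 124.4 and 128.9 for KO1 and 80.73 and 79.95 for KO2. Its log2 fold change was 2.80 (SE 0.0942, adjusted p = 5.05e-13) in KO1 and 2.14 (SE 0.0961, adjusted p = 2.69e-11) in KO2. All KO libraries lay above both WT libraries. Id2 was at 40.20 and 35.75 CPM in WT, 90.03 and 92.73 for KO1 and 116.8 and 120.6 for KO2, a log2 fold change of 1.27 (SE 0.0769, adjusted p = 5.74e-10) and 1.65 (SE 0.076, adjusted p = 3.62e-11). Id1 was at 35.40 and 29.33 CPM in WT, 55.56 and 61.05 for KO1 and 74.53 and 72.21 for KO2, a log2 fold change of 0.85 (SE 0.0943, adjusted p = 8.2e-07) and 1.18 (SE 0.0927, adjusted p = 1.75e-08). For Id1 and Id2, too, no KO library overlapped a WT library. Tgfbi, a secreted matrix protein named for its induction by TGF-beta, differed between the lines: it was at 9.962 and 7.793 CPM in WT, 20.29 and 19.19 for KO1 and 9.602 and 9.562 for KO2. It rose in KO1 by 1.15 on the log2 scale (SE 0.138, adjusted p = 1.9e-06), and the 0.11 of KO2 (95% interval -0.21 to 0.44, adjusted p = 0.548) was not called.

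**Figure D2:**
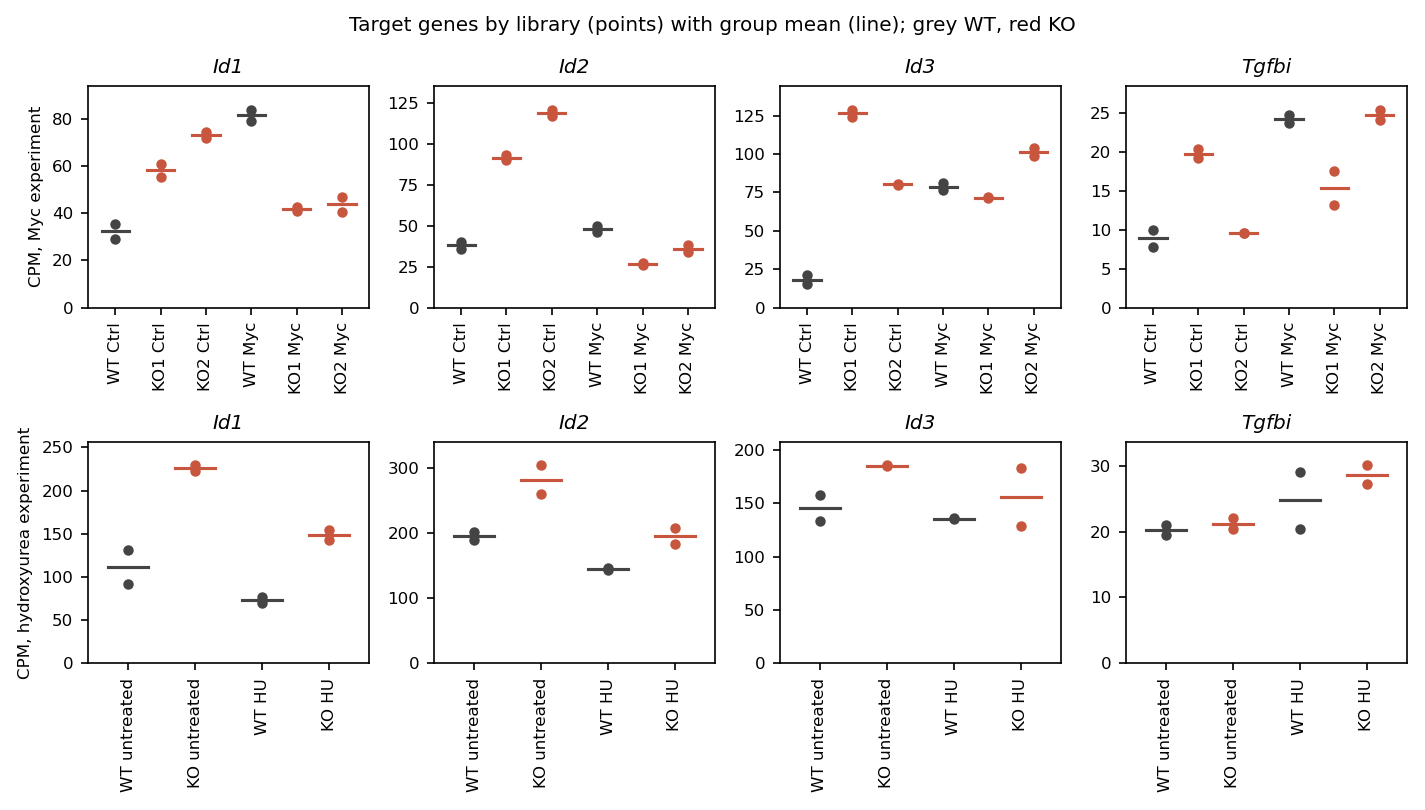
CPM of Id1, Id2, Id3 and Tgfbi in each library (points) with the group mean (line), for the Myc experiment (top row, 6 groups) and the HU experiment (bottom row, 4 groups); WT is grey and KO red, and each panel has its own axis from 0. Id3 starts from 15.45 and 20.91 CPM in WT Ctrl and exceeds 70 CPM in all other groups of the Myc experiment, and Id1 is higher in KO than in WT cells in every pair of groups except those with Myc.

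The windows of 250 bases before the transcription start of Id2, Id3 and Grem1 are shown, read 5′ to 3′ along the gene, from RefSeq's promoter table (GRCm38.p6), which has an entry for 24 of the 35 genes. Id2 and Id3 are the target genes with an entry that were called in both KO lines, and Grem1 is the gene with no counts in either KO line with Ctrl. Capitals mark the letters CAGAC or its reverse complement GTCTG, a core that Smad3 and Smad4 can bind, and GGCGCC, a GC-rich core reported for BMP Smads.
Id2, chr12:25096093-25096342, minus strand: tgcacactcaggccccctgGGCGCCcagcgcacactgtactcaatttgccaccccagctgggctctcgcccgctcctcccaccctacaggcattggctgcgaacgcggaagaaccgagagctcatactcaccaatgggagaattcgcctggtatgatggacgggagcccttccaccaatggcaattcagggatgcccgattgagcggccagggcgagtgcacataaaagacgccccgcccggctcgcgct
Id3, chr4:136143572-136143821, plus strand: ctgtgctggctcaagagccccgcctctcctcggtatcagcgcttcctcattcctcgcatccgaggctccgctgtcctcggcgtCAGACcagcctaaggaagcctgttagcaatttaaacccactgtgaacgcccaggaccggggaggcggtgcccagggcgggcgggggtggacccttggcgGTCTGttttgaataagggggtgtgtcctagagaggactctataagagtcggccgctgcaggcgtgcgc
Grem1, chr2:113758649-113758898, minus strand: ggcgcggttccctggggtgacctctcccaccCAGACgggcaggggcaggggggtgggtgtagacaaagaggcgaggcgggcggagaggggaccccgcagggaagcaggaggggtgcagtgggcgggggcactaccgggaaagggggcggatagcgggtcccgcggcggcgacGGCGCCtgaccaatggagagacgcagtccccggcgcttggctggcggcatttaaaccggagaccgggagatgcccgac
Id2 holds GGCGCC, Id3 holds CAGAC once on each strand, and Grem1 holds 1 of each motif on the printed strand. The window of Smad6, a gene called higher in both KO lines, is not printed and holds neither CAGAC nor GGCGCC on either strand. The 24 genes have 32 windows, since some have several starts. CAGAC on either strand was found in 15 of these 32 windows (46.9%), against 42.2% of all 32851 windows, and GGCGCC in 9 of 32 (28.1%), against 9.59%. The E-box CACGTG that Myc can bind was in 3 of 32 (9.38%; Acvr1b, Bmp4 and Tgfb2), against 6.02% of all windows, and GTCTAGAC and TTTCGCGC were in 0 of 32, against 0.167% and 0.256%. A match describes the letters of the window and is no evidence of binding. In mm9, the build of the counts, Id2 is a protein-coding gene at chr12:25778666-25780957, Id3 at chr4:135699412-135701670, Id1 at chr2:152561987-152563146 and Grem1 at chr2:113586321-113598803.

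In all, 26 of 34 pathway genes were called in KO1 against WT with Ctrl (52.2% of all 13107 genes were), 18 higher (25.5% of all genes) and 8 lower (26.7%). In KO2 against WT it was 23 of 34 (49.9% of all genes), 13 higher (23.3% of all genes) and 10 lower (26.6%). The median log2 fold change was 0.34 in KO1 and 0.09 in KO2, against 0.00 and -0.01 over all genes, and the median absolute value was 0.60 and 0.50, against 0.39 and 0.38. Both comparisons use the same WT libraries. Since the list was chosen with earlier results of these data known, its shares and medians beside all genes are a description and no independent test. The calls for Bambi and Acvr1 in KO1 and Smurf2 in KO2 were lost with DESeq2. Some calls also depended on single libraries, those for Bambi and Acvr1 in KO1 and for Skil in both lines among them. Without 1 library, the log2 fold change in KO1 ran from 1.313 to 1.989 for Bambi and from -0.268 to -0.188 for Acvr1.

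**Figure D3:**
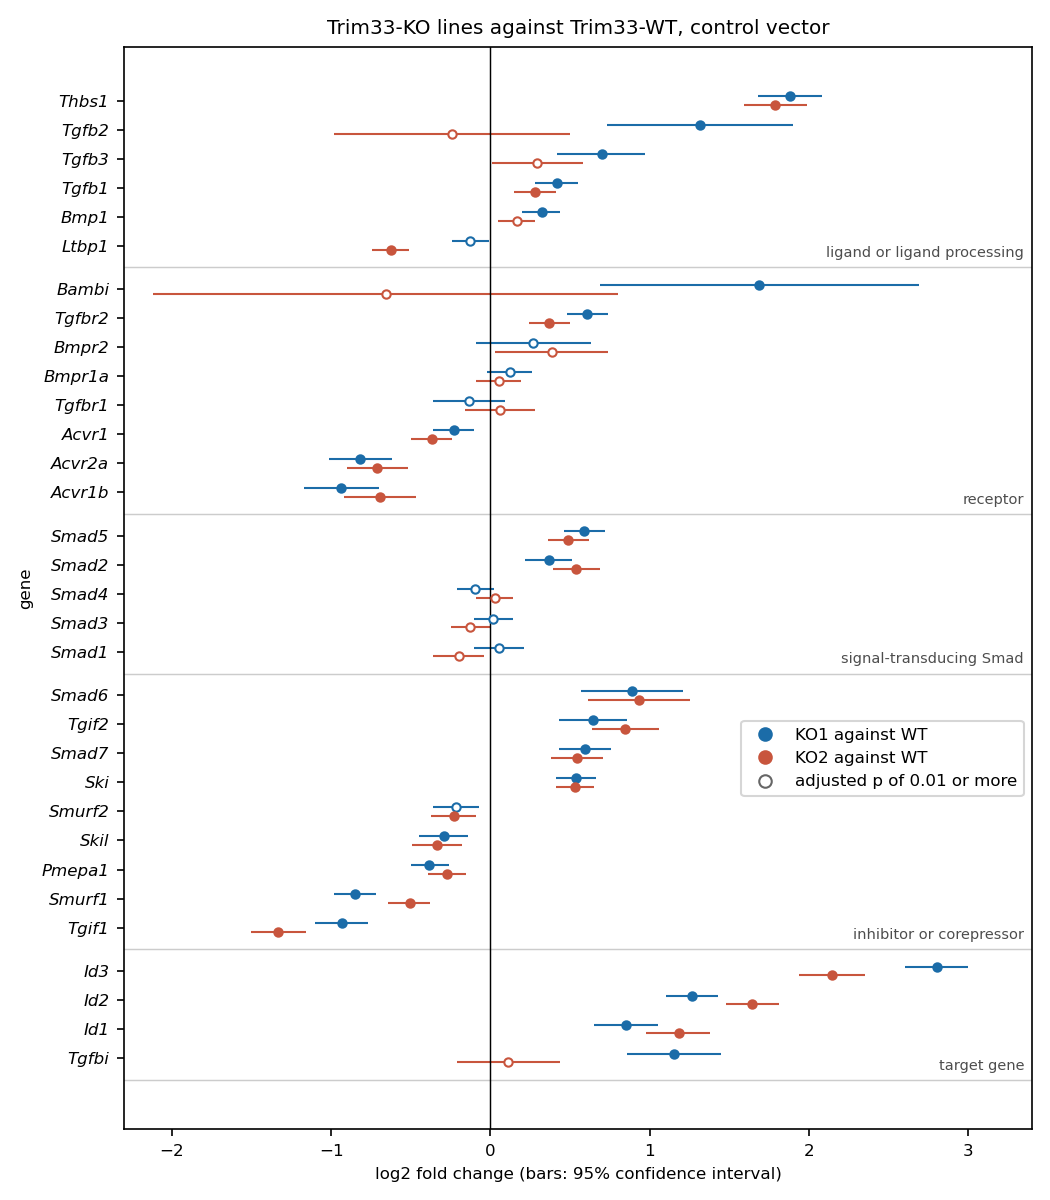
Log2 fold changes of 32 pathway genes in KO1 (blue) and KO2 (red) against WT with the control vector, grouped by role, with 95% confidence intervals; open points had an adjusted p of 0.01 or more, and Grem1 and Bmp4, each with a group at no more than 3 counts in each library, are not drawn. Id3 and Thbs1 lie farthest to the right in both lines, at 2.80 and 2.14 and at 1.88 and 1.79, and Tgif1 farthest to the left in KO2, at -1.33.

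Among the ligands and their modulators, the BMP antagonist gene Grem1 had no counts in either KO line with Ctrl. Gremlin 1 binds BMP ligands and keeps them from their receptors. Its counts were 594 and 612 in WT Ctrl (41.97 and 41.84 CPM) and 0 in all 4 KO Ctrl libraries, which at a floor of 3 counts per library is lower by at least 211-fold for KO1 and 214-fold for KO2. With Myc, Grem1 was at 12.29 and 13.07 CPM in WT, 0 counts in the libraries labelled KO2 Myc, and 25 and 14 counts (1.454 and 0.8648 CPM) in those labelled KO1 Myc. Of the 8 KO libraries of the Myc experiment, those 2 are the exceptions to a count of 0. In the HU experiment Grem1 was present in KO cells, as given below.

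The BMP ligand gene Bmp4 went the other way. It had 2 and 1 counts in WT Ctrl and 3 and 0 in WT Myc, against 58 and 42 for KO1 and 11 and 15 for KO2 with Ctrl, and 13 and 12 for KO1 and 41 and 55 for KO2 with Myc. That is at least 15.9-fold higher in KO1 Ctrl and at least 4.06-fold higher in KO2 Ctrl than in WT, from low levels of no more than 3.859 CPM. Its exons overlap the opposite-strand gene Gm15217, and the sources used here do not say whether the counting used strand. Thbs1, which encodes a matrix protein that can activate latent TGF-beta, was at 349.1 and 315.6 CPM in WT, 1278 and 1172 for KO1 and 1166 and 1128 for KO2. It rose by 1.88 (SE 0.0936, adjusted p = 5.61e-11) and 1.79 (SE 0.0934, adjusted p = 1.43e-10) on the log2 scale, with no overlap between KO and WT libraries.

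The TGF-beta ligand genes rose in KO1. Tgfb2 was at 1.342 and 1.436 CPM in WT, 3.593 and 3.352 for KO1 and 1.633 and 0.7155 for KO2, with a log2 fold change of 1.32 in KO1 (SE 0.277, adjusted p = 0.000583) and of -0.24 in KO2, which was not called (95% interval -0.98 to 0.50, adjusted p = 0.567). Tgfb3 rose by 0.70 in KO1 (SE 0.129, adjusted p = 0.000182), and Tgfb1, the main isoform of most tissues, by 0.42 in KO1 (adjusted p = 2.28e-05) and 0.28 in KO2 (adjusted p = 0.00106, lost without the second WT Ctrl library). Bmp1, a protease that processes latent TGF-beta complexes and BMP antagonists, rose by 0.32 in KO1 (adjusted p = 9.75e-05). Ltbp1, which tethers latent TGF-beta to the matrix, was at 379.2 and 385.5 CPM in WT, 352.2 and 348.7 for KO1 and 245.5 and 250.3 for KO2. It fell in KO2 by 0.62 on the log2 scale (SE 0.0552, adjusted p = 6.89e-08) and was not called in KO1.

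Among the receptors, the activin receptor genes fell and Tgfbr2 rose. Acvr1b, a type I receptor for activin and nodal, was at 29.39 and 33.43 CPM in WT, 15.77 and 17.02 for KO1 and 20.18 and 18.67 for KO2, a log2 fold change of -0.94 (SE 0.11, adjusted p = 1.6e-06) and -0.69 (SE 0.107, adjusted p = 3.48e-05). Acvr2a, its type II partner, was at 40.20 and 35.48 CPM in WT and between 21.23 and 24.30 in the KO libraries, a log2 fold change of -0.82 (SE 0.092, adjusted p = 9.71e-07) and -0.71 (SE 0.0909, adjusted p = 4.67e-06). In both genes every KO library lay below both WT libraries, and the exons of Acvr2a overlap those of the opposite-strand gene Orc4. Acvr1, a BMP type I receptor, fell less, by 0.23 in KO1 and 0.37 in KO2 (SE 0.0612 and 0.0616, adjusted p = 0.00389 and 7.81e-05). Tgfbr2, the type II receptor of TGF-beta, rose from 68.18 and 66.86 CPM in WT to 102.1 and 103.7 in KO1 and 87.92 and 86.65 in KO2, by 0.61 (SE 0.0606, adjusted p = 2.42e-07) and 0.37 (SE 0.0611, adjusted p = 6.62e-05) on the log2 scale. Bambi, a decoy receptor without a kinase domain, had 4 and 5 counts in WT, 19 and 12 for KO1 and 4 and 2 for KO2. Its log2 fold change was 1.69 in KO1 (SE 0.473, adjusted p = 0.0053) and -0.66 in KO2 (95% interval -2.12 to 0.80, adjusted p = 0.44). Tgfbr1, Bmpr1a and Bmpr2 were called in neither line.

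Of the 5 signal-transducing Smads on the list, Smad2 and Smad5 were called in each line (52.2% and 49.9% of all genes were). Smad2 was at 48.19 and 47.44 CPM in WT, 63.08 and 60.13 for KO1 and 71.78 and 67.26 for KO2, and rose by 0.37 (SE 0.0698, adjusted p = 0.000247) and 0.54 (SE 0.0692, adjusted p = 4.75e-06) on the log2 scale. Smad5 was at 77.15 and 73.28 CPM in WT, 115.6 and 110.9 for KO1 and 107.0 and 104.3 for KO2, and rose by 0.59 (SE 0.0593, adjusted p = 2.61e-07) and 0.49 (SE 0.0594, adjusted p = 2.6e-06). In both genes all KO libraries lay above the WT libraries. Smad4, the common partner, had intervals of -0.21 to 0.02 in KO1 and -0.09 to 0.14 in KO2, around -0.10 and 0.03. For Smad3 they were -0.10 to 0.14 and -0.25 to 0.00, around 0.02 and -0.13, and for Smad1 -0.10 to 0.21 and -0.36 to -0.04, around 0.06 and -0.20. None of these 3 genes was called in either line (adjusted p from 0.0333 to 0.785).

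Of the inhibitors and corepressors, 8 of 9 were called in KO1 (52.2% of all genes were), 4 in each direction, and 9 of 9 in KO2 (49.9% of all genes), 4 higher and 5 lower. Among them the inhibitory Smads rose. Smad6, which blocks mainly BMP receptors, was at 4.663 and 4.717 CPM in WT, 9.182 and 8.215 for KO1 and 9.602 and 8.326 for KO2, a log2 fold change of 0.89 (SE 0.153, adjusted p = 8.98e-05) and 0.93 (SE 0.152, adjusted p = 5.73e-05). Smad7, which blocks TGF-beta and BMP receptors, rose from 41.05 and 40.68 CPM to between 54.38 and 64.66, by 0.59 and 0.54 (SE 0.0786 and 0.0787). The corepressor gene Ski rose by 0.54 and 0.53, whereas its relative Skil fell by 0.29 and 0.34. Without 1 library, the log2 fold change of Skil ran from -0.365 to -0.225 in KO1 and from -0.389 to -0.279 in KO2.

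The Tgif pair split as well. Tgif1, a homeodomain corepressor of Smad2 and Smad3, was at 187.9 and 200 CPM in WT, 99.47 and 103.8 for KO1 and 76.49 and 77.73 for KO2, a log2 fold change of -0.93 (SE 0.0786, adjusted p = 3.29e-08) and -1.33 (SE 0.0802, adjusted p = 8.2e-10). Tgif2 was at 10.60 and 11.76 CPM in WT, 17.17 and 17.74 for KO1 and 19.40 and 20.88 for KO2, a log2 fold change of 0.64 (SE 0.101, adjusted p = 3.8e-05) and 0.85 (SE 0.099, adjusted p = 1.69e-06). Its exons overlap the opposite-strand gene 5430405H02Rik. The ubiquitin ligase gene Smurf1 was at 172.5 and 186.6 CPM in WT, 98.01 and 101.1 for KO1 and 125.9 and 127.0 for KO2, and fell by 0.85 (SE 0.0622, adjusted p = 5.88e-09) and 0.51 (SE 0.0613, adjusted p = 2.58e-06) on the log2 scale. Pmepa1, a TGF-beta-induced membrane protein that sequesters Smad2 and Smad3, fell by 0.38 and 0.27, and Smurf2 by 0.23 in KO2.

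**Figure D4:**
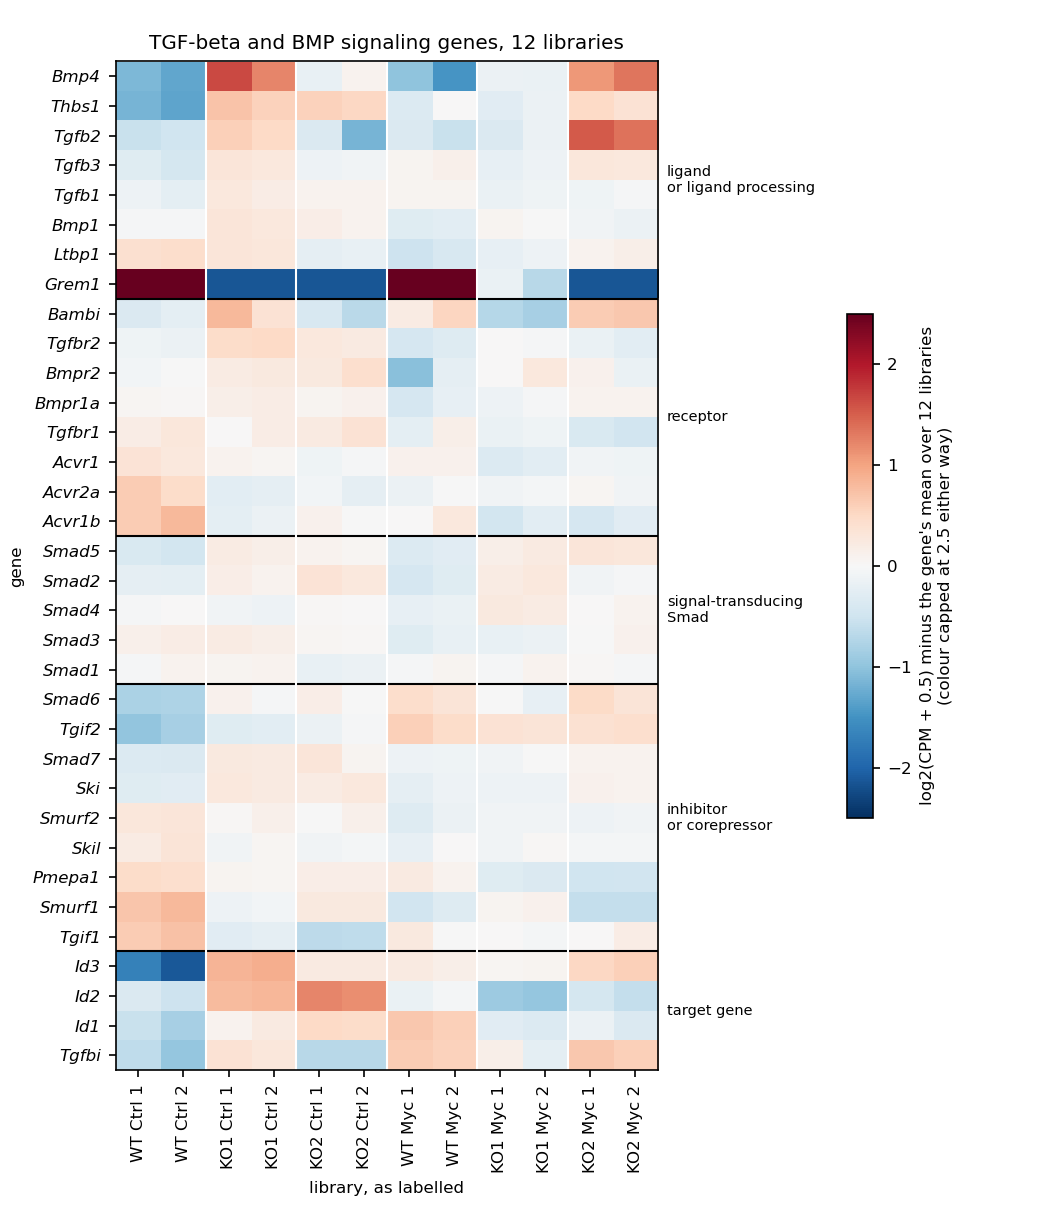
Log2(CPM + 0.5) of 34 pathway genes (rows, by role) in the 12 libraries of the Myc experiment (columns, 2 per labelled group), as the difference from the gene's mean over the 12 libraries, with red above and blue below the mean and the colour capped at 2.5. Grem1 is above its mean in the 4 WT libraries, Id3 is far below its mean in WT Ctrl, and Bmp4, Tgfb2 and Bambi are higher in KO1 Ctrl and KO2 Myc than in KO2 Ctrl and KO1 Myc.

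Between the KO lines with Ctrl, KO2 was lower than KO1 in 8 of the 11 called genes (9.96% of all genes were) and higher in 3 (8.33%). Bambi (-2.34), Bmp4 (-1.96), Tgfb2 (-1.56), Tgfbi (-1.04), Id3 (-0.66), Ltbp1 (-0.50), Tgif1 (-0.40) and Tgfbr2 (-0.24) were lower on the log2 scale, and Id2 (0.38), Smurf1 (0.35) and Id1 (0.33) were higher. The count fell to 6 without either KO2 Ctrl library or without the first KO1 Ctrl library. With Myc, KO2 against KO1 had 11 genes higher (9.35% of all genes) and 3 lower (9.14%), led among those above the floor by Tgfb2 (1.94, SE 0.216, adjusted p = 3.76e-06), Bmp4 (1.86, SE 0.336, adjusted p = 0.000491) and Smurf1 (-0.69, SE 0.0637, adjusted p = 4.14e-07). Bambi, with 18 and 20 counts in KO2 Myc against 2 and 1 in KO1 Myc, was at least 6.04-fold higher. That count of 14 was 9 without the first KO2 Myc or the second KO1 Myc library.

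Myc in Trim33-WT cells raised all 4 target genes of the fixed list. Against WT Ctrl, 22 of 34 pathway genes were called with Myc (44.3% of all genes were), 9 higher (21.6% of all genes) and 13 lower (22.7%), with a median log2 fold change of -0.16 against 0.01 over all genes. The count of 22 was 16 with the compared groups alone, and it also fell without the second WT Ctrl library. Id3 rose to 80.98 and 76.61 CPM, by 2.12 on the log2 scale (SE 0.096, adjusted p = 1.07e-10), and Id1 to 84.04 and 79.15 CPM, by 1.33 (SE 0.092, adjusted p = 8.23e-09). Both groups were clear of WT Ctrl in these genes. Tgif2 rose by 1.48 (SE 0.0932), Tgfbi by 1.45 (SE 0.133) to 24.72 and 23.72 CPM, Smad6 by 1.24 (SE 0.145) and Thbs1 by 1.09 (SE 0.0921) to 622.3 and 788.5 CPM. Id2 rose least of the Id genes, by 0.33 (adjusted p = 0.00203), a call lost with the compared groups alone and without the second Ctrl or the second Myc library (0.25 and 0.27). Grem1 fell by 1.72 (SE 0.109, adjusted p = 3.1e-08) and Smurf1 by 1.15 (SE 0.0629, adjusted p = 7.62e-10), to 76.49 and 85.54 CPM. This comparison shares its WT Ctrl libraries with the knockout comparisons above. Trim33 mRNA itself was lower in WT Myc than in WT Ctrl, by 0.82 on the log2 scale (adjusted p = 6.98e-08), and its part in these results was not tested.

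In the knockouts Id1 and Id2 moved the other way with Myc, and Id3 moved in opposite directions in the 2 lines as labelled. Over the mean of both KO lines, 21 of 34 genes were called with Myc against Ctrl (42.0% of all genes were), 5 higher (21.1% of all genes) and 16 lower (20.9%). Id2 was at 27.09 and 26.07 CPM in KO1 Myc and 38.02 and 33.81 in KO2 Myc, below every KO Ctrl library, and fell by 1.75 (SE 0.0544, adjusted p = 1.45e-12) on the log2 scale. Id1, at 42.73 and 40.95 CPM in KO1 Myc and 47.16 and 40.50 in KO2 Myc, fell by 0.61 (SE 0.0631, adjusted p = 7.18e-07). Here, too, no KO Myc library reached a KO Ctrl library. Id3 fell by 0.24 (SE 0.0561, adjusted p = 0.00163), with 71.22 and 71.84 CPM in KO1 Myc and 98.64 and 104.2 in KO2 Myc. That call was lost without the second KO1 Ctrl library. Tgfb2 (0.80), Tgif2 (0.57), Tgfbi (0.51), Tgif1 (0.50) and Smad4 (0.18) rose, and Pmepa1 (-0.52), Thbs1 (-0.49), Tgfbr1 (-0.49) and Tgfbr2 (-0.47) fell most after Id2 and Id1. Line by line, as labelled, 21 genes were called in KO1 (36.1% of all genes), 3 higher (17.9%) and 18 lower (18.2%), and 18 in KO2 (38.8% of all genes), 9 higher (20.2%) and 9 lower (18.6%).

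Id1 and Id2 fell in both lines as labelled, and 5 genes moved in opposite directions. Id2 fell by 1.78 in KO1 and by 1.73 in KO2 (SE 0.0788 and 0.075), and Id1 by 0.48 and by 0.74 (SE 0.0903 and 0.0881). Of 11 genes called in both lines, which share no library, 6 had the same sign and 5 (Bmp4, Tgfb2, Ltbp1, Bambi and Id3, the last at -0.82 in KO1 and 0.34 in KO2) the opposite sign. All 5 are among the genes whose difference between the lines turned round with the vector. For them, an effect particular to a line and the placing of the labels on the Myc libraries cannot be told apart. Bmp4 went from 58 and 42 counts to 13 and 12 in KO1, a log2 fold change of -2.13 (SE 0.331), and from 11 and 15 counts to 41 and 55 in KO2, a log2 fold change of 1.69 (SE 0.335). Over all genes called in both lines, 64.7% of 2627 had the same sign.

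The test of the difference itself, the effect of Myc in KO minus that in WT, put the Id genes first among called genes. It uses the same WT Ctrl libraries as the knockout and Myc comparisons above, so that these are not separate results. For Id3 it rests mostly on the WT cells, with a Myc effect of 2.12 there and of -0.24 in the KO mean. Over the mean of both lines, 19 of 34 genes were called (34.7% of all genes were), 7 higher (18.1% of all genes) and 12 lower (16.6%). Id3 had an interaction of -2.36 on the log2 scale (SE 0.111, adjusted p = 2.47e-10), Id2 of -2.09 (SE 0.0967, adjusted p = 2.24e-10) and Id1 of -1.95 (SE 0.111, adjusted p = 1.76e-09). Thbs1 followed with -1.57 (SE 0.112, adjusted p = 1.66e-08) and Smad6 with -1.15 (SE 0.173, adjusted p = 4.99e-05), and Tgif1 (1.06, SE 0.0957, adjusted p = 2.24e-07) was the largest in the positive direction. As labelled, 20 genes were called for KO1 (37.3% of all genes) and 16 for KO2 (32.8%), and Id1 (-1.81 and -2.08), Id2 (-2.12 and -2.06) and Id3 (-2.94 and -1.78) were negative in both.

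Within the Myc libraries, the knockout thus no longer had more Id1 or Id2 than WT. Over the mean of both lines, 17 of 34 genes were called against WT Myc (33.8% of all genes were), 11 higher (16.0% of all genes) and 6 lower (17.8%). Id1 was lower by 0.93 (SE 0.0737, adjusted p = 4.5e-08) and Id2 by 0.63 (SE 0.0683, adjusted p = 1.67e-06) on the log2 scale. For Id3 the difference was 0.11 (95% interval -0.03 to 0.26, adjusted p = 0.195), and for Thbs1 0.26 (adjusted p = 0.0126). Without the first or the second WT Myc library the Thbs1 difference was 0.10 or 0.44, the latter called. Genes that kept their direction from the Ctrl libraries were Grem1 (lower), Bmp4, Smad2 (0.45), Smad5 (0.55), Tgfbr2 (0.27) and Bmp1 (0.24), all higher, and Acvr1b (-0.51, lost without the second WT Myc library), Pmepa1 (-0.57) and Acvr1 (-0.30), all lower. These 9 are among 12 genes called in both, 46.2% and 70.6% of the 2 lists, which share no library. The other 3, Id1, Id2 and Ltbp1 (-0.38 with Ctrl and 0.43 with Myc), changed sign. Of all 3114 genes called in both, 84.5% had the same sign. As labelled, 18 genes were called in KO1 against WT Myc (25.1% of all genes) and 17 in KO2 (35.2%). Each count was 11 with the compared groups alone, and that of KO2 was 11 without the second KO2 Myc library.

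In the HU experiment few genes of any kind were called in the knockout, and Id1 and Id2 were again higher among the pathway genes. Of 31 genes, 3 were called in KO against WT without HU (5.58% of all genes were), 2 higher (3.07% of all genes) and 1 lower (2.52%). Id1 was at 91.67 and 131.2 CPM in WT and 222.8 and 229.2 in KO, a log2 fold change of 1.01 (SE 0.135, adjusted p = 5.09e-08). Id2 was at 189.3 and 201.5 CPM in WT and 304.5 and 259.9 in KO, a log2 fold change of 0.53 (SE 0.118, adjusted p = 0.00123). No KO library overlapped a WT library in either gene, though the call for Id2 was lost without the first KO or the first WT library. Tgfb3 had 12 and 14 counts in WT and 0 and 2 in KO, at least 4.68-fold lower at a floor of 3 counts per library. In the Myc experiment Tgfb3 was higher in KO1. Id3, at 133.7 and 157.5 CPM in WT and 185.4 and 184.8 in KO, was not called, with a log2 fold change of 0.34 (95% interval 0.08 to 0.61, adjusted p = 0.0828). The count of 3 fell to 1 without the first KO or the first WT library.

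Grem1 and Thbs1, called in the Myc experiment, were not called here. Grem1 was at 11.57 and 10.53 CPM in WT and 5.285 and 6.348 in KO, a log2 fold change of -0.91 (95% interval -1.86 to 0.03, adjusted p = 0.225). With HU, Grem1 was at 8.272 to 13.85 CPM in WT and 5.532 to 13.43 in KO, and was not called either. Thbs1 had a log2 fold change of -0.34 (95% interval -0.55 to -0.13, adjusted p = 0.0247), where both KO lines with Ctrl had been higher than WT. Over all genes called both in the mean of KO1 and KO2 with Ctrl and in this comparison, 41.2% of 442 had the same sign, and the Pearson r across 11161 genes was -0.05. The tables were normalized separately and differ in depth, and the labels do not give the knockout line of the HU experiment.

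With HU, 3 of 31 genes were called in KO against WT (6.04% of all genes were), 1 higher (3.27% of all genes) and 2 lower (2.77%). Id1 was at 77.32 and 69.96 CPM in WT and 143.2 and 154.1 in KO, a log2 fold change of 1.01 (SE 0.142, adjusted p = 1.86e-07), against 1.01 without HU, and this call held without each library in turn. Id2 was higher by 0.42 (adjusted p = 0.0129) and not called. Tgfb3 had 34 and 20 counts in WT and 4 and 1 in KO, a log2 fold change of -3.20 (SE 0.779, adjusted p = 0.00307), and Tgfbr1 fell by 0.72 (SE 0.197, adjusted p = 0.00944), from 50.91 and 67.19 CPM to 36.76 and 34.77. Without any 1 of the 4 libraries, and with DESeq2, the count was 1.

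HU lowered Id1 and Id2 in both genotypes and raised Smad3. In WT, 6 of 31 genes were called (9.83% of all genes were), 3 higher (6.39% of all genes) and 3 lower (3.44%). In KO it was 4 of 31 (6.45% of all genes), 1 higher (4.65%) and 3 lower (1.80%). Id1 fell by 0.60 in WT (SE 0.146, adjusted p = 0.00267) and by 0.61 in KO (SE 0.131, adjusted p = 0.000846) on the log2 scale. The fall of Id1 in WT was 0.84 without the first and 0.33 without the second untreated library, and its call was lost without the second untreated or the second HU library, whereas that in KO held without each library. Id2 fell by 0.43 (SE 0.122, adjusted p = 0.0139) and by 0.53 (SE 0.118, adjusted p = 0.00122). Its call was lost without either HU or the second untreated library in WT, and without the first HU or the first untreated library in KO. Smad3, the TGF-beta receptor Smad, rose from 161.1 and 175.2 CPM to 238.3 and 256.6 in WT and from 176.8 and 157.4 to 223.1 and 223.7 in KO, by 0.56 (SE 0.118, adjusted p = 0.000485) and 0.42 (SE 0.119, adjusted p = 0.0171), the latter call being lost without either HU or the second untreated KO library. In these 3 genes no HU library overlapped an untreated library of its genotype, which with 2 libraries per group adds little to the calls. In WT, Smad7 rose by 0.70 (SE 0.189, adjusted p = 0.00867) and Smurf1 by 0.54 (SE 0.135, adjusted p = 0.00356), and Pmepa1 fell by 0.38 (SE 0.115, adjusted p = 0.0203). In KO, Smad5 fell by 0.57 (SE 0.162, adjusted p = 0.0171). The calls for Smad7 and Pmepa1 were lost without either HU or the first untreated library, that for Smurf1 without the second HU or the second untreated library, and that for Smad5 without either HU or the second untreated library and with DESeq2.

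The interaction, HU in KO minus HU in WT, was called for 0 of 31 genes by edgeR (0.0714% of all genes were, 0.0446% higher and 0.0268% lower) and for 0 by DESeq2, and 3 had an unadjusted p under 0.05: Smad7 (-0.62), Smad5 (-0.59) and Thbs1 (0.32), each with an adjusted p of 0.822 or more. For Id1 the interaction was 0.00 (95% interval -0.41 to 0.41) and for Id2 -0.10 (95% interval -0.44 to 0.24). Smad7 in KO changed by 0.08 (95% interval -0.29 to 0.44) and Smad5 in WT by 0.02 (95% interval -0.30 to 0.33), neither called. The count in WT was 3 without the first HU or the second untreated library and 1 without the second HU library, and that in KO was 1 without the first HU library. In the HU experiment 71.9% of the counts from 1 to 50 are even, against 48.4% in the Myc experiment, and halving the counts kept all of these calls.

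**Figure D5:**
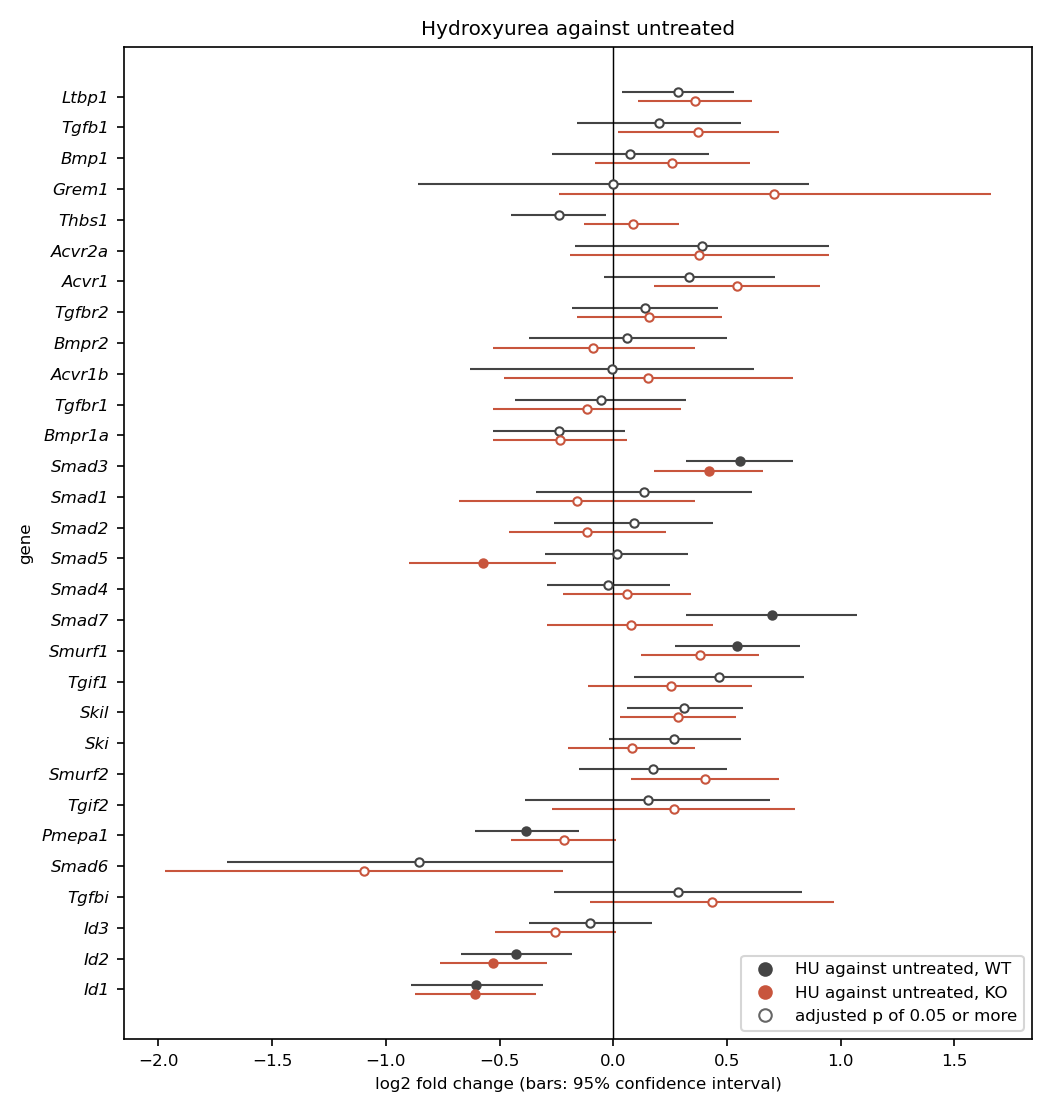
Log2 fold changes with HU against untreated for 30 pathway genes in WT (grey) and KO (red), grouped by role, with 95% confidence intervals; open points had an adjusted p of 0.05 or more, and Tgfb3, with no more than 3 counts in either untreated KO library, is not drawn. Id1 and Id2 lie left of 0 and Smad3 right of 0 in both genotypes.

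A wider list of 105 TGF-beta and BMP pathway genes, Trim33 among them, had 75 genes in the Myc experiment. Of these, 44 were called in KO1 against WT with Ctrl (26 higher, 18 lower), which is 58.7% against 52.2% of all genes, and 41 in KO2 (20 higher, 21 lower), which is 54.7% against 49.9% of all genes. Both shares are near those of all genes. The 23 target genes measured from this wider list went both ways. In KO1 19 were called (82.6%, against 52.2% of all genes), 14 higher and 5 lower. In KO2 it was 17 (73.9%, against 49.9%), 9 higher and 8 lower. Fstl1, a secreted follistatin-like protein, was at 41.33 and 38.76 CPM in WT Ctrl and between 0.2602 and 1.117 in the KO Ctrl libraries, a log2 fold change of -5.28 (SE 0.143) and -6.65 (SE 0.17). The BMP ligand gene Bmp6 had 157 and 194 counts in WT Ctrl and no more than 2 in any KO Ctrl library. With Ctrl, Smad9, a receptor Smad of the BMP branch, had 0 counts in both WT libraries, 26 and 19 for KO1 and 11 and 9 for KO2. Snai2, a zinc finger repressor, had 11 and 13 counts in WT Ctrl and 0 in KO2 Ctrl. In the HU experiment, 10 of 61 genes were called in KO against WT without HU (7 higher, 3 lower), 16.4% against 5.58% of all genes, among them Bmp2, a BMP ligand gene (1.5, SE 0.151), Snai1 (2.19, SE 0.552) and Itgb8, an integrin that activates latent TGF-beta, with 9 and 8 counts in WT and 0 in KO. With HU 13 were called (7 higher, 6 lower), 21.3% against 6.04% of all genes, the largest being Fst (-3.16), Bmp2 (1.71) and Cyr61 (1.5).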

How the data were processed

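RNA-seq of p19/Nras cells was deposited as gene counts, which the authors made with STAR 2.5.4 on mm9, with edgeR 3.26.8 in their notes, per the labels' processing tools. The authors named the Myc table as normalized, but its values are whole numbers with a different total in each library and were used as counts. Their tables of comparisons (log2 fold changes and p-values) were not used. Strand and counting tool are not given in the sources used here. Both tables hold only genes with at least 26 (Myc) or 29 (HU) counts over all libraries. Each table was fitted separately in edgeR 4.0.16 (R 4.3.3, limma 3.58.1) by the quasi-likelihood test, with 1 coefficient per group, TMM scaling (factors 0.958 to 1.019 and 0.9821 to 1.02) and Benjamini-Hochberg adjustment over all genes. CPM use TMM-scaled totals. Bounds set a group with no more than 3 counts in each library to 3 counts per library and cover counting error only. Groups came from the labels, each of 2 libraries, and no label says that these were separate cultures. With 2 libraries per group, the absence of overlap between groups adds little to a call. The study's text speaks of independent RNA-seq experiments without tying them to libraries, so p-values may measure technical spread. Scripts were tested on simulated data.

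The members and the lists were chosen with earlier results of these data known. All members were accounted for, with full values for the called members of largest absolute log2 fold change, up to 4 per role in each KO against WT with Ctrl and up to 8 in other comparisons. Of the wider pathway list, the 3 largest called genes per KO comparison with Ctrl or in the HU experiment are named, Trim33 apart. Means over both KO lines were added after the values were seen. Alternatives were DESeq2 1.42.0, its size factors, a minimum of 5 CPM, the compared groups alone, halved HU counts, a replicate block and leaving out each library. Replicate numbers did not pair the libraries: correlations of same-numbered deviations ran from -0.148 to 0.192 in 15 pairs of groups (Myc) and from -0.014 to 0.051 in 6 (HU).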

Additional observations from a re-analysis of the deposited data

Results flagged for a closer look

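The genes listed here had an effect that differed between groups in edgeR's quasi-likelihood test of the difference itself (adjusted p under 0.01), given as log2 differences. The effect of Myc in the libraries labelled KO1 minus that in WT differed for Smad6 (-1.39), Smurf1 (1.33), Tgif2 (-0.84), Tgif1 (0.8), Smad7 (-0.51), Ski (-0.48), Skil (0.36), Smurf2 (0.35), Thbs1 (-1.95), Tgfb3 (-0.98), Tgfb1 (-0.61), Ltbp1 (0.41), Acvr2a (0.82), Smad4 (0.5), Id3 (-2.94), Id2 (-2.12), Id1 (-1.81) and Tgfbi (-1.8). Grem1 and Bambi, with a group at no more than 3 counts in each library, are left out. The effect of Myc in the libraries labelled KO2 minus that in WT differed for Tgif1 (1.32), Tgif2 (-0.98), Smad6 (-0.91), Skil (0.38), Pmepa1 (-0.37), Smurf2 (0.36), Tgfb2 (2.46), Thbs1 (-1.2), Ltbp1 (1.2), Tgfb1 (-0.41), Acvr2a (0.78), Bmpr1a (0.34), Smad3 (0.42), Id1 (-2.08), Id2 (-2.06) and Id3 (-1.78). The values for KO1 and for KO2 depend on how these labels are placed on the Myc libraries. Over the mean of both lines, Tgfb2, Bmpr1a and Smad3 were not called. The effect of the knockout with Ctrl differed between the lines, as KO2 minus KO1, for Tgif1 (-0.4), Smurf1 (0.35), Bmp4 (-1.96), Tgfb2 (-1.56), Ltbp1 (-0.5), Bambi (-2.34), Tgfbr2 (-0.24), Tgfbi (-1.04), Id3 (-0.66), Id2 (0.38) and Id1 (0.33). With 2 libraries per group, no test could say which library of a pair lies far from the rest. Among the groups of the Myc experiment, the WT Myc pair differed most, with a mean squared difference 11 times that of counting error.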

How the results depend on the processing

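Each group has 2 libraries, so leaving one out assumes that the lone library varies like the other groups. Genes called in KO2 against KO1 with Ctrl numbered 11, against 7 at a minimum of 5 CPM and 6 to 8 without 1 library, and with Myc 14, against 9 to 10. With the compared groups alone, KO1 and KO2 against WT with Myc each had 11 calls in place of 18 and 17, and KO2 had 11 to 17 without 1 library. KO against WT with HU had 3 calls, 5 with the compared groups alone, 1 at 5 CPM, 1 with DESeq2 and 1 without each library in turn, and without HU 3, against 1 to 2. HU in WT had 6 calls, against 1 to 4, and HU in KO 4, against 1 to 4. The cause of these changes was not tested. With the replicate block, HU in KO had 7 calls, and no other count of calls moved by over 1.5 times.

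Sign changes touched uncalled values near 0. The Id1 interaction with HU was 0.001 with DESeq2's size factors, 0.01 at 5 CPM, 0 with DESeq2, 0.014 with halved counts and -0.276 to 0.236 without 1 library. Without 1 library, the Id2 interaction ran from -0.21 to 0.036, Smad3 in KO1 from -0.009 to 0.048, Tgfb2 in KO2 from -0.95 to 0.231, Tgfbi in KO2 from -0.056 to 0.298, Smad5 with HU in WT from -0.202 to 0.212 and Smad7 with HU in KO from -0.015 to 0.162. The calls for Id1, Id2 and Id3 in KO1 and KO2 against WT with Ctrl held under every alternative run. The HU libraries held fewer counts than the Myc libraries, and the part of depth in these counts of calls was not tested.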
